A study of Mus musculus with 583 samples.

Results

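The Nodal pathway was followed through 7 genes of 38924 mouse genes in the count table: the ligand Nodal, its coreceptor Tdgf1 and receptor Acvr2b, the secreted inhibitors Lefty1 and Lefty2, and the intracellular inhibitors Smad7 and Skil. They were chosen by name, with earlier results of these data known. Their variation and correlation among cells are given as a description without a test, and their levels between methods are tested in a fit over all genes. All 7 passed the filter on low counts. The cells were of J1, a mouse embryonic stem cell line, and every one of the 583 cells had been kept in 2i/LIF medium, which keeps them naive with LIF and with blockers of the kinases MEK and GSK3. The study compared 6 single-cell RNA-seq methods on these cells, each in a replicate library A and B, which makes 12 libraries. Smart-seq / C1 and Smart-seq2 are full-length methods that copy transcripts along their length and count reads, whereas CEL-seq2, MARS-seq, Drop-seq and SCRB-seq tag the 3′ end of a transcript and count unique molecular identifiers (UMIs). In vitro transcription amplifies the material of CEL-seq2 and MARS-seq, and PCR that of the other 4 methods.

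Nodal is a secreted ligand of the TGF-beta family. It binds activin receptors together with a coreceptor of the Cripto family, and the receptors then phosphorylate SMAD proteins that switch on target genes with partners such as FOXH1. The Lefty genes are among those targets and code for proteins that block Nodal outside the cell, which closes a feedback loop; in the mouse embryo this loop patterns the epiblast and later the left-right axis. Smad7 and Skil act inside the cell, Smad7 at the receptors and Skil, also called SnoN, on the SMAD complex in the nucleus.

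Lefty1 and Lefty2 lie on the plus strand of mouse chromosome 1 (GRCm38), at positions 180935022 to 180938400 and 180893108 to 180899103, with 35919 bases between them. Their coding sequences are 1104 bases long in both genes and were identical at 91.8% of the positions. A read from an identical stretch can match both genes. The sequences below show the end of the coding sequence, where most bases are identical and the pair differs only in the final ones.
The last 60 coding bases of the pair, at chr1:180937913-180937972 in Lefty1 and chr1:180897751-180897810 in Lefty2, differ at 7 positions, which stand in capitals here.
Lefty1, coding bases 1045 to 1104: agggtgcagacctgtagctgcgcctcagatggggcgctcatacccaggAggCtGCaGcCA
Lefty2, coding bases 1045 to 1104: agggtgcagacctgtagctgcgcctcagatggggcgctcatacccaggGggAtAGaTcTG
Of the 1590 stretches of 31 bases in the longest Lefty1 transcript, 398 (25%) also occur in Lefty2, and every one of them starts in the coding sequence. In the last 500 bases of the transcripts, which the tag methods favour, 30 of 470 such stretches of Lefty1 and 5 of 470 of Lefty2 occur in another gene. Counts of the pair are therefore uncertain in the full-length methods to the extent that the authors' counting could split or drop shared reads. Tdgf1 has the same limit, since 17.4% of its stretches, none of them in its last 500 bases, occur in another gene, all of those in the pseudogene Tdgf1-ps1. The other 4 genes shared at most 0.145% of their stretches.

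There were 69 cells in A and 61 in B of Smart-seq / C1, 80 in A and 77 in B of Smart-seq2, 34 in A and 37 in B of CEL-seq2, 29 in A and 36 in B of MARS-seq, 42 in A and 34 in B of Drop-seq, and 39 in A and 45 in B of SCRB-seq. Counts of mouse genes per library ranged from 583302 UMIs (Drop-seq B) to 34984056 reads (Smart-seq2 A). In Drop-seq, 29 of 42 barcodes in A and 12 of 34 in B lay within 1 base of another barcode of the same library, and joining them left 25 and 28 cells. No 2 cells held identical counts; the replicate libraries of a plate or chip method shared 19 to 66 well or barcode labels, and Drop-seq libraries shared none. All 12 genes of a naive and core stem cell list (Pou5f1, Sox2 and Nanog among them) were counted in every library and summed to 2540 to 4830 CPM (counts scaled to a common total of mouse genes per library), against 7.5 to 89.1 CPM for 7 mesendoderm genes and 56.7 to 339 CPM for 8 genes of the primed and formative state. Lists of other cell types summed to 22.3 to 476 CPM for 8 fibroblast genes, 38.5 to 223 for 6 trophectoderm genes, 33.0 to 156 for 5 neural genes, 1.5 to 55.8 for 7 primitive endoderm genes and 0 to 246 for 6 genes of the two-cell-like state; their part in the results was not tested. Replicate letters name libraries, and nothing says that they came from separate cultures, so all p-values measure the spread between libraries, which may be technical. Intervals on counts and shares cover counting error only.

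Nodal, the ligand (chromosome 10, 61417972 to 61425338, plus strand), was highest in Smart-seq2 and lowest in CEL-seq2. Smart-seq / C1 gave 65.2 CPM in A and 57.85 in B, Smart-seq2 221 and 282, CEL-seq2 15.4 and 23.7, MARS-seq 45.0 and 92.3, Drop-seq 65.0 and 49.7 and SCRB-seq 109.5 and 199.9. Both Smart-seq2 libraries lay above all others and both CEL-seq2 libraries below all others, while Smart-seq / C1, MARS-seq and Drop-seq overlapped. In a summed library, fewer cells with the transcript and less transcript per cell cannot be told apart. The share of cells with a count adds to this: Nodal was counted in 98.8% and 100% of cells in Smart-seq2 and 94.9% and 100% in SCRB-seq, but in 32.4% and 64.9% in CEL-seq2. With every cell thinned to 10000 counts, reads in Smart-seq2 and UMIs in the other 2 methods, which left no cell out, the shares were 82.5% and 84.4% in Smart-seq2, 66.7% and 82.2% in SCRB-seq and 14.7% and 16.2% in CEL-seq2. CEL-seq2 was thus lowest of these 3 methods with and without thinning. The files hold no cell type that should lack these genes, and a background share from free RNA was not measured.

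Tdgf1, the coreceptor also known as Cripto (chromosome 9, 110939603 to 110946158, minus strand), was the most evenly seen of the 7 genes across cells, with a count in 85.3% of the cells of Drop-seq B, 96.6% of MARS-seq A and every cell of the other 10 libraries. Smart-seq / C1 gave 732.5 and 497 CPM, Smart-seq2 305 and 371, CEL-seq2 429 and 362, MARS-seq 345 and 577, Drop-seq 252.5 and 194 and SCRB-seq 211 and 147.5. Unlike Nodal and the Lefty genes, it was lowest in the PCR-amplified tag methods: each library of CEL-seq2 and MARS-seq exceeded each library of Drop-seq and SCRB-seq. The pseudogene Tdgf1-ps1 received 814 to 1167 counts in each full-length library and 1 to 17 in each tag library. Acvr2b, a type II activin receptor (chromosome 9, 119402118 to 119434995, plus strand), was the lowest of the 7 genes per unit length in the full-length methods. Smart-seq / C1 gave 23.5 and 14.4 CPM, Smart-seq2 16.3 and 15.4, CEL-seq2 8.09 and 7.54, MARS-seq 15.0 and 18.9, Drop-seq 39.0 and 48.0 and SCRB-seq 19.7 and 20.9. The Drop-seq pair lay above all other libraries and the CEL-seq2 pair below them. In Drop-seq the highest count in any cell was 8. The annotation places Gm47320 on the opposite strand of Acvr2b; it was not used here.

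Lefty1, an extracellular inhibitor of Nodal, spanned a 204-fold range between libraries. Its levels in A and B of Smart-seq / C1 were 24.8 and 57.2 CPM, Smart-seq2 487 and 494, CEL-seq2 2.43 and 7.90, MARS-seq 96.1 and 9.44, Drop-seq 353 and 80.6 and SCRB-seq 291 and 306. Replicates averaged 490.3 ± 5.12 CPM in Smart-seq2 and 298.7 ± 10.5 in SCRB-seq (SD, n = 2), whereas A exceeded B 10.2-fold in MARS-seq and 4.38-fold in Drop-seq. The CEL-seq2 values rest on 3 counts in A and 22 in B, and the MARS-seq values on 64 in A and 9 in B. Lefty2 spanned a 17.0-fold range: Smart-seq / C1 gave 178 and 139 CPM, Smart-seq2 462 and 565, CEL-seq2 33.2 and 116, MARS-seq 49.5 and 44.1, Drop-seq 347 and 183 and SCRB-seq 238 and 329. Both genes were highest in Smart-seq2, and both were higher in every Drop-seq and SCRB-seq library than in every CEL-seq2 library.

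**Figure D1:**
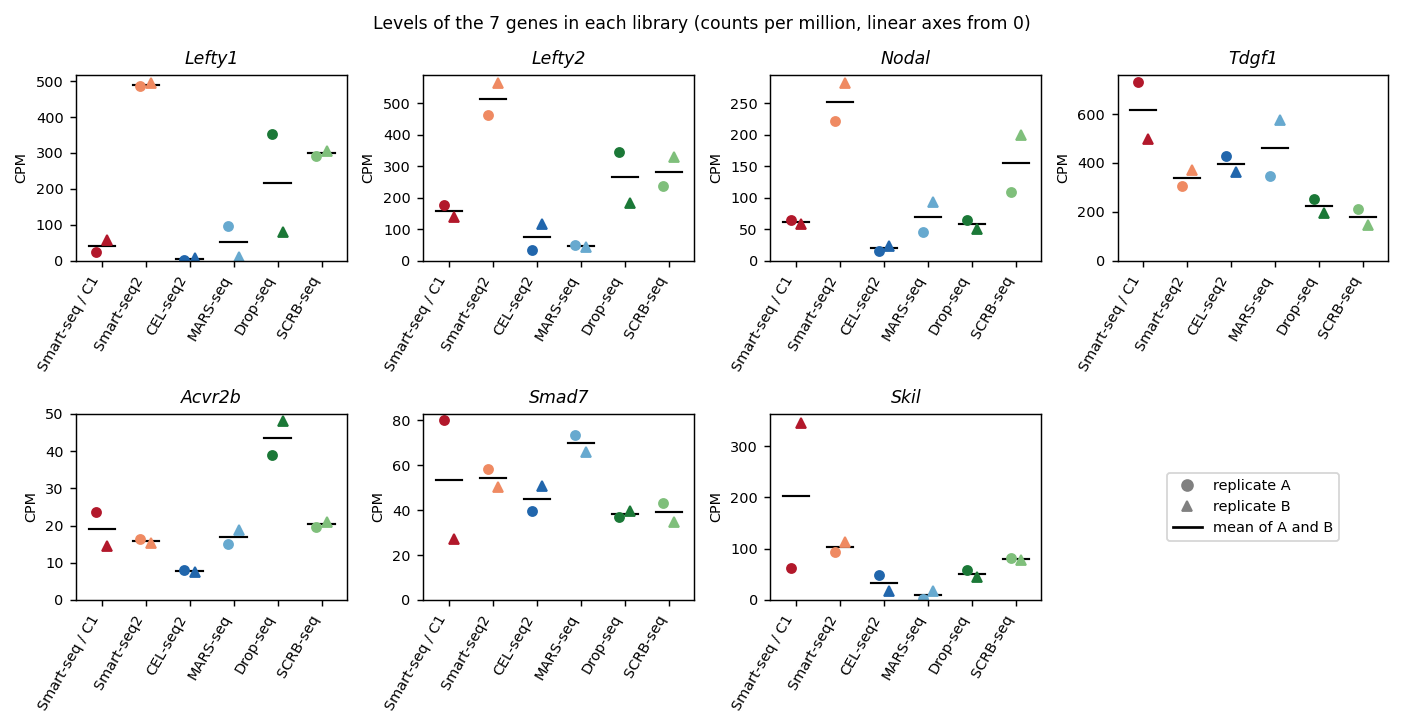
CPM of each of the 7 genes in each library, by method, on linear axes from 0; circles are replicate A, triangles replicate B and bars their mean. Lefty1, Lefty2 and Nodal are highest in Smart-seq2, Tdgf1 in Smart-seq / C1 A (732.5 CPM) and Skil in Smart-seq / C1 B (346 CPM).

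The balance within the Lefty pair differed between methods. Lefty1 made up 12.2% (95% Clopper-Pearson interval 11.2 to 13.3) and 29.2% (27.7 to 30.7) of the pair's counts in Smart-seq / C1 A and B, against 51.3% (50.7 to 51.8) and 46.6% (46.1 to 47.2) in Smart-seq2 A and B. Among tag methods it made up 6.82% (1.43 to 18.7) and 6.38% (4.04 to 9.5) in CEL-seq2, against 66.0% (55.7 to 75.3) and 17.6% (8.4 to 30.9) in MARS-seq. It made up 50.5% (46.5 to 54.4) and 30.5% (23.4 to 38.4) in Drop-seq, against 55.0% (52.2 to 57.9) and 48.2% (45.5 to 50.9) in SCRB-seq. Smart-seq2 and SCRB-seq thus gave near equal counts of the pair, as reads not corrected for length in Smart-seq2 and as UMIs in SCRB-seq. Lefty2 has the longer exon sequence (2611 bases against 1758), and per length Lefty1 stood above Lefty2 in Smart-seq2, as given below. Both methods run on the C1 chip, Smart-seq / C1 and CEL-seq2, counted mostly Lefty2, as MARS-seq B and Drop-seq B did. In single cells, both genes were counted together in 74 of 80 and 72 of 77 Smart-seq2 cells and in all 39 and 45 SCRB-seq cells. In Smart-seq / C1 A, 36 of 69 cells had Lefty2 without Lefty1 and 0 cells had Lefty1 alone.

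**Figure D2:**
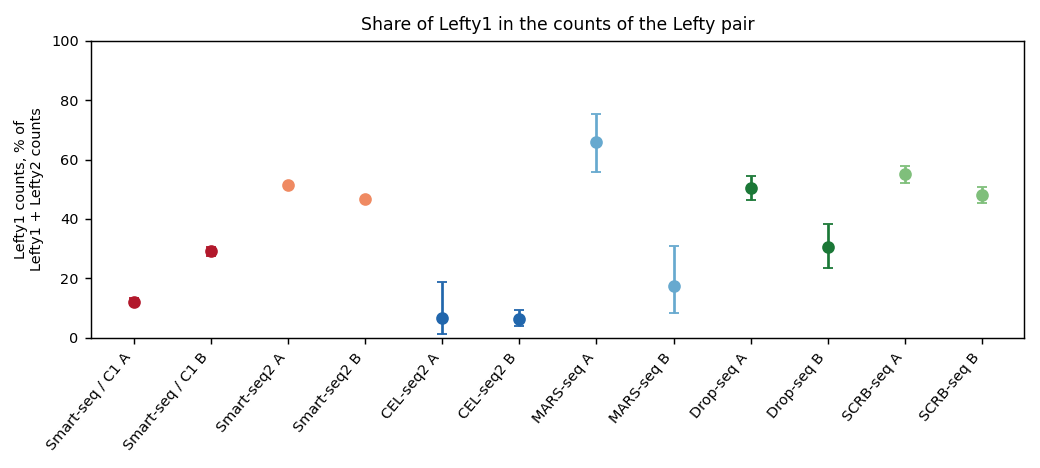
Share of Lefty1 in the summed counts of Lefty1 and Lefty2 for each library, in percent, with 95% Clopper-Pearson intervals. The shares run from 6.38% in CEL-seq2 B to 66.0% in MARS-seq A, with Smart-seq2 and SCRB-seq between 46.6% and 55.0%. Counts are reads, not corrected for length, in Smart-seq / C1 and Smart-seq2, and UMIs in the other methods.

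Smad7 (chromosome 18, 75367529 to 75395935, plus strand), which is induced by TGF-beta signals and directs receptors to degradation, had the narrowest range of the 7 genes, 2.97-fold between libraries. Smart-seq / C1 gave 80.3 and 27.05 CPM, Smart-seq2 58.4 and 50.4, CEL-seq2 39.6 and 50.6, MARS-seq 73.5 and 66.1, Drop-seq 36.85 and 39.4 and SCRB-seq 43.4 and 34.8. Its lowest and highest libraries were the 2 replicates of Smart-seq / C1, so its spread within that method covered all the others. Skil, a repressor of SMAD complexes (chromosome 3, 31095058 to 31122577, plus strand), spanned a 230-fold range. Levels in A and B of Smart-seq / C1 were 61.6 and 346 CPM, Smart-seq2 93.4 and 112, CEL-seq2 47.7 and 18.3, MARS-seq 1.501 and 17.8, Drop-seq 58.5 and 44.6 and SCRB-seq 82.35 and 77.45. In MARS-seq A, Skil was counted in 3.45% of cells and in no cell after thinning, which allows a share of thinned cells of up to 10.3%. Library B of Smart-seq / C1 exceeded library A 5.62-fold, a difference between replicates larger than those of 97.4% of the genes tested in that method.

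Per length, the order of the genes differed between the full-length methods. In RPKM, which divides read counts by exon length and library total, Smart-seq2 gave Lefty1 279 ± 2.91, Lefty2 197 ± 27.9, Tdgf1 129 ± 17.9, Nodal 120 ± 20.5, Smad7 12 ± 1.25, Skil 10.6 ± 1.39 and Acvr2b 4.03 ± 0.169 (mean ± SD, n = 2). The neighbours Tdgf1 and Nodal, and Smad7 and Skil, did not differ beyond their spread in that order. Smart-seq / C1 gave Tdgf1 235 ± 63.4, Lefty2 60.7 ± 10.6, Nodal 29.4 ± 2.47, Lefty1 23.3 ± 13.1, Skil 21.0 ± 20.7, Smad7 11.9 ± 8.33 and Acvr2b 4.83 ± 1.64 RPKM (mean ± SD, n = 2). There both Lefty genes stood below the coreceptor, and no neighbouring pair in the order from Nodal to Smad7 differed beyond its spread.

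The levels were set against the methods in 1 edgeR quasi-likelihood fit over all 14293 genes that passed the filter, with Benjamini-Hochberg adjustment over all of them. Of the 7 genes, 6 differed between methods in the joint test at an adjusted p under 0.05, against 65.4% of all genes tested, so a call in that test was common. Smad7 was the exception, with an adjusted p of 0.247 in the joint test. Lefty1 and Acvr2b passed with adjusted p of 0.0094 and 0.018, and both lost the call with no filter on low counts, at 0.0659 and 0.0744. Acvr2b also lost it without any 1 of 6 libraries, and Lefty1 without either Smart-seq2 library (edgeR adjusted p 0.0647 without A and 0.0683 without B).

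Between full-length and tag methods, 3 of the 7 genes were higher in the full-length methods and 0 were lower, against 25.6% higher and 23.2% lower among all genes. Skil was higher by 1.97 on the log2 scale (SE 0.47, edgeR adjusted p = 0.0037), Lefty2 by 0.97 (SE 0.27, adjusted p = 0.0055) and Nodal by 0.90 (SE 0.24, adjusted p = 0.0046). All 3 kept their calls in each of the 18 alternatives run, although the libraries of the 2 sides overlapped. For Lefty2, both Smart-seq / C1 libraries (156 TMM-scaled CPM each) lay below every Drop-seq and SCRB-seq library (173 to 353). For Nodal, both (57.3 and 64.8) lay below the SCRB-seq libraries (111 and 200). These 2 calls therefore do not describe Smart-seq / C1 against all tag methods. Lefty1 (0.95, SE 0.57), Tdgf1 (0.46, SE 0.20), Acvr2b (-0.28, SE 0.31) and Smad7 did not pass in edgeR, with adjusted p of 0.21, 0.064, 0.49 and 1.0. Tdgf1 passed in 11 of 18 alternatives, with adjusted p of 0.0037 to 0.033 in those, and Lefty1 passed without MARS-seq A (1.82, adjusted p = 0.001), without MARS-seq B (0.97, 0.037) and without Drop-seq A (1.59, 0.015). Lefty1 averaged 234 ± 222 TMM-scaled CPM in the full-length libraries (SD, n = 4) and 147 ± 150.0 in the tag libraries (SD, n = 8), so the spread within each side exceeded the difference. Over all genes tested, the median log2 fold change of this contrast was 0.213 with TMM scaling and 0.072 with DESeq2 size factors, and no call of the 7 genes changed with that scaling.

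Within the full-length methods, Smart-seq / C1 had less Nodal and Lefty2 than Smart-seq2 and more Tdgf1. The log2 fold changes of Smart-seq / C1 over Smart-seq2 were -1.84 for Nodal (SE 0.40, edgeR adjusted p = 0.0047), -1.52 for Lefty2 (SE 0.45, adjusted p = 0.028) and 1.03 for Tdgf1 (SE 0.33, adjusted p = 0.041). These are 1 gene of 7 higher and 2 lower, against 8.75% higher and 6.81% lower among all genes. The largest difference was that of Lefty1, at -3.31 (SE 0.99), and it did not pass in edgeR (adjusted p = 0.052); it passed in 7 of 18 alternatives, among them the DESeq2 test (0.022) and the fit without MARS-seq A (0.0015). The Tdgf1 call was lost in 12 of 18 alternatives, and the Lefty2 call was lost in limma on library means (adjusted p = 0.28) and without any 1 of the 4 full-length libraries. The Nodal call was lost without Smart-seq2 B (edgeR adjusted p = 0.078).

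CEL-seq2 had less Nodal than MARS-seq, with a log2 fold change of -1.92 (SE 0.44, edgeR adjusted p = 0.0045). It was the only 1 of the 7 genes called in this contrast, against 11% higher and 12.4% lower among all genes. The Nodal call was lost in limma on library means (adjusted p = 0.23), without CEL-seq2 A (edgeR 0.059) and without MARS-seq B (edgeR 0.14). Lefty1 differed by -3.30 (SE 1.19, edgeR adjusted p = 0.078), on the few counts given above; it passed in the DESeq2 test (0.012), as Acvr2b did (0.0397), and without MARS-seq B or either Drop-seq library. Skil passed in limma alone (adjusted p = 0.012) and Lefty2 without CEL-seq2 A alone (0.0497). Between Drop-seq and SCRB-seq none of the 7 genes was called by edgeR, against 1.03% higher and 0.483% lower among all genes (147 and 69 genes, or 280 and 45 with DESeq2 size factors). Nodal came nearest there, at -1.45 (SE 0.42, edgeR adjusted p = 0.088, unadjusted p = 0.00286), and it was the only 1 of the 7 genes with an unadjusted p under 0.05 in that contrast. The DESeq2 test called none of them, and limma on library means called Nodal and Lefty1 lower in Drop-seq (adjusted p = 0.0066 and 0.031). That limma fit called 3611 of all 14293 genes lower and 455 higher, so a lower call was common in it. Nodal also passed in edgeR with no filter (0.034) and without either Smart-seq / C1 library (0.048 and 0.045).

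Among the tag methods, 5 of the 7 genes were called between in vitro transcription and PCR methods, more than in any other contrast. The in vitro transcription methods are CEL-seq2 and MARS-seq, the PCR methods Drop-seq and SCRB-seq. Averaged over both of its methods, the in vitro transcription side had less of both Lefty genes, Nodal and Acvr2b, and more Tdgf1. Lefty1 differed by -3.75 (SE 0.78, edgeR adjusted p = 0.0093), Lefty2 by -2.06 (SE 0.34, adjusted p = 0.00039), Nodal by -1.21 (SE 0.30, adjusted p = 0.0091), Acvr2b by -1.22 (SE 0.39, adjusted p = 0.031) and Tdgf1 by 1.23 (SE 0.24, adjusted p = 0.0015). That is 1 of 7 genes higher and 4 lower, against 9.14% higher and 12.9% lower among all genes. Lefty2 averaged 66.4 ± 38.7 TMM-scaled CPM in the in vitro transcription libraries and 274 ± 82.7 in the PCR tag libraries, and Tdgf1 472 ± 119.9 and 200.4 ± 46.3 (SD, n = 4 each), with no overlap of libraries in either gene. Libraries of both sides overlapped for Lefty1, Nodal and Acvr2b. Nodal averaged 78.7 ± 35.3 TMM-scaled CPM in MARS-seq and 56.5 ± 13.6 in Drop-seq (SD, n = 2 each), the reverse of its contrast. Lefty1 reached 115 in a MARS-seq library, above the 76.1 of a Drop-seq library. Its in vitro transcription side rests on 3 and 22 counts in CEL-seq2 A and B and 64 and 9 in MARS-seq A and B. The calls of Lefty2 and Tdgf1 held in each of the 18 alternatives. That of Lefty1 was lost with no filter (edgeR adjusted p = 0.054), that of Nodal without any 1 of 3 libraries (0.053 to 0.06) and that of Acvr2b in 11 of 18 alternatives. Skil differed by -1.68 (SE 0.63, edgeR adjusted p = 0.076) and passed in 6 of 18 alternatives, with adjusted p of 0.0002 to 0.014 in those; without MARS-seq B its difference was -3.14.

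**Figure D3:**
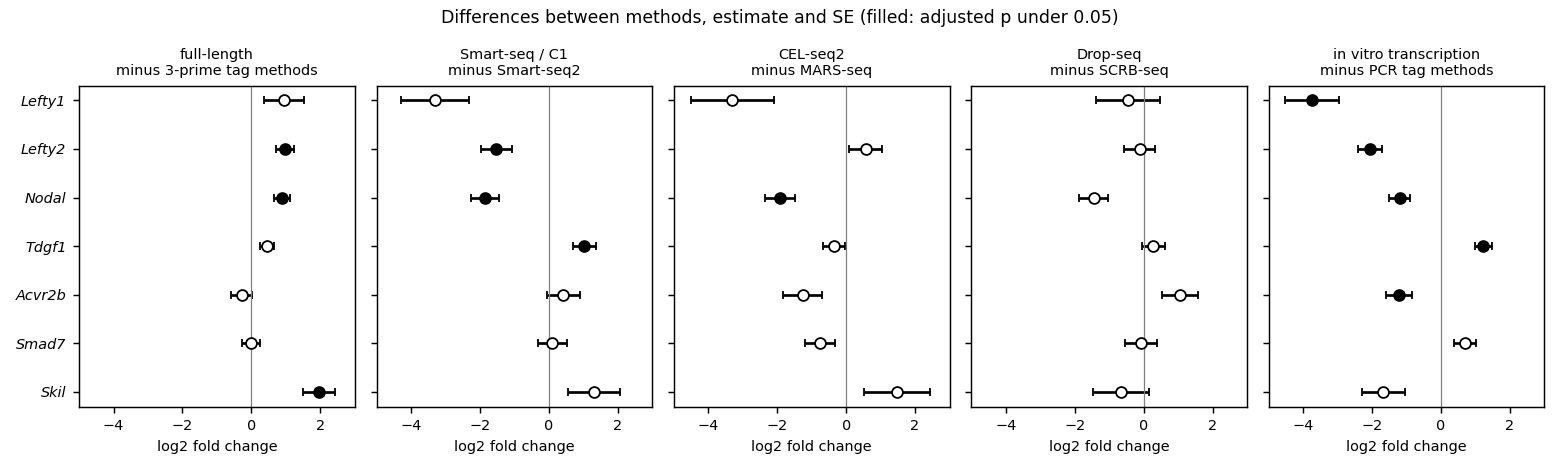
Log2 fold change of each of the 7 genes in the 5 method contrasts with its standard error from the edgeR fit; filled points passed at an adjusted p under 0.05 over all 14293 genes. Lefty1, Lefty2, Nodal and Acvr2b lie below 0 and Tdgf1 above 0 in the contrast of in vitro transcription with PCR tag methods, all filled.

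The rest of the Nodal and activin pathway was read from a list of 40 genes by role, 39 of them in the table and 31 tested. Members are among them. In the joint test 22 of the 31 passed, against the 65.4% of all genes. Between full-length and tag methods, 8 of the 31 were higher and 4 lower, against 25.6% higher and 23.2% lower among all genes, and the median log2 fold change of the 31 was 0.03, beside 0.213 over all genes tested. Of 3 ligands tested, Nodal and Gdf3, a relative of Nodal that uses the same receptors, were higher in the full-length methods. Gdf3 averaged 272 ± 49.3 TMM-scaled CPM in full-length libraries and 98.3 ± 36.6 in tag libraries (SD, n = 4 and 8), a log2 fold change of 1.46 (SE 0.26, edgeR adjusted p = 0.00015). Of 6 receptors and coreceptors tested, 5 passed the joint test and 1, Acvr2a, was called higher in the full-length methods (edgeR adjusted p = 0.018). Acvr2a, another type II activin receptor, averaged 17.8 ± 9.91 TMM-scaled CPM in full-length libraries and 15.7 ± 13.9 in tag libraries (SD, n = 4 and 8). It had 0 counts in both MARS-seq libraries and 38.0 and 28.0 CPM in the CEL-seq2 libraries, so its fold changes depend on the fitted prior and are not given. In TMM-scaled CPM, both CEL-seq2 libraries (29.6 and 39.6) lay above every full-length library (9.27 to 28.1). The call therefore does not describe all tag methods.

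Of 7 SMAD proteins and partners tested, 2 were higher and 1 lower in the full-length methods, shares near those of all genes (25.6% and 23.2%). Foxh1, the DNA-binding partner of SMAD2, averaged 73.0 ± 27.7 TMM-scaled CPM in the full-length libraries and 4.92 ± 3.87 in the tag libraries (SD, n = 4 and 8; edgeR adjusted p = 5.3e-09). It had 0 and 1 counts in CEL-seq2, so its fold change depends on the fitted prior and is not given. Drap1, which restrains FOXH1, averaged 18.4 ± 12.5 TMM-scaled CPM in the full-length libraries and 68.0 ± 25.6 in the tag libraries (log2 fold change -2.02, SE 0.31, edgeR adjusted p = 2.9e-05). Foxh1 and Drap1, named for the smallest p of their role, differed in opposite directions between methods run on the same cell line. No library of one side overlapped the other side for either gene. Of 10 intracellular inhibitors tested, 2 were higher and 2 lower in the full-length methods, Skil among the higher ones and Pmepa1, which sequesters receptor SMADs, among the lower ones (log2 fold change -1.55, SE 0.34, edgeR adjusted p = 0.00097). Ppm1a, a SMAD phosphatase, had the smallest p of that role in the joint test (edgeR adjusted p = 7.5e-05). Both convertases tested passed the joint test, Pcsk6 with an adjusted p of 0.0019 and Furin with 0.02, and Furin was lower in the full-length methods (log2 fold change -1.62, SE 0.56, edgeR adjusted p = 0.024). The antagonists Cer1, Dand5 and Fstl3 were not tested because they did not pass the filter. In the BMP arm, 7 of 9 genes passed the joint test, against 65.4% of all genes, and of these the ligand Bmp4 had the smallest p (edgeR adjusted p = 0.000146). Id3 and Id2, targets of BMP signals, were higher in the full-length methods (log2 fold changes 2.46, SE 0.39, and 1.41, SE 0.46; edgeR adjusted p = 7.0e-05 and 0.017).

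Within most libraries, a few cells held much of the Lefty counts. The 10% of cells with the most Lefty1, rounded up to whole cells, held 52.4% and 38.3% of its counts in Smart-seq2. They held 58.6% and 63.8% in Drop-seq and 30.5% and 25.6% in SCRB-seq. In Drop-seq these were 5 of 42 and 4 of 34 cells, and Drop-seq B held only 47 Lefty1 counts, in 14 cells. In Smart-seq2 A the median cell had 130 CPM of Lefty1 and the highest 3860 CPM, against 272 and 560 CPM in SCRB-seq A. Tdgf1 was more even, with 22.4% and 25.7% in the top 10% of cells in Smart-seq2 and 28.5% and 25.5% in SCRB-seq. In Drop-seq A, however, the top 10% held 53.6% of Tdgf1.

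Variation among cells was expressed as the log2 squared coefficient of variation in thinned cells above the trend of genes of like mean, for the 2686 genes whose mean reached 0.2 counts in each of the 12 libraries. Only Lefty2, Nodal and Tdgf1 reached that mean. Lefty2 had a median residual of 0.50 over the 12 libraries (rank 29 of 2686) and was above the trend in 12 of 12 libraries, in 10 of 12 with near-identical Drop-seq barcodes joined and in 11 of 12 without thinning. Its percentile among those genes was 99.9 and 99.8 in Smart-seq2 and 99.9 and 99.7 in CEL-seq2, but 76.7 and 69.5 in Drop-seq and 78.5 and 74.5 in SCRB-seq. In CEL-seq2 A, Lefty2 had only 41 counts before thinning, in 12 of 34 cells, and 1 cell held 19 of them. Tdgf1 ranked 75, with a median residual of 0.34, and Nodal 158, with 0.25. With 1 library left out, the ranks ran from 18 to 54 for Lefty2, 49 to 177 for Tdgf1 and 83 to 421 for Nodal, so the ranks of Tdgf1 and Nodal rest on which libraries enter. With near-identical Drop-seq barcodes joined, the ranks were 48 for Lefty2, 20 for Tdgf1 and 596 for Nodal of 2634 genes. Over the Smart-seq2 and SCRB-seq libraries alone, Lefty2 ranked 8, Lefty1 10, Nodal 39, Tdgf1 106, Smad7 327 and Skil 1947 of 4589 genes. That choice of libraries was made after seeing the data so that Lefty1 and Skil could be included. The Lefty1 residual there ran from -0.097 to 3.27 and was above the trend in 3 of 4 libraries. That of Lefty2 ran from 0.185 to 2.566.

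Lefty1 and Lefty2 went together from cell to cell. Their Spearman correlation of counts per cell total, over the cells of 1 library, was 0.226 and 0.424 in Smart-seq / C1, against 0.577 and 0.786 in Smart-seq2. It was 0.183 in CEL-seq2 B, 0.555 in MARS-seq A, 0.489 and 0.211 in Drop-seq and 0.623 and 0.133 in SCRB-seq. It was above 0 in 10 of 10 libraries, with a median of 0.457; CEL-seq2 A and MARS-seq B had fewer than 10 cells with Lefty1 and gave no value. All correlations here are descriptions over cells that share a library and its depth. The median was 0.331 over 8 libraries in thinned cells, 0.478 given the cell total and 0.446 with Drop-seq barcodes joined. Over the 6 tag libraries alone, where few shared stretches of the pair lie in the last 500 bases, it was 0.35, against 0.501 in the 4 full-length libraries.

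**Figure D4:**
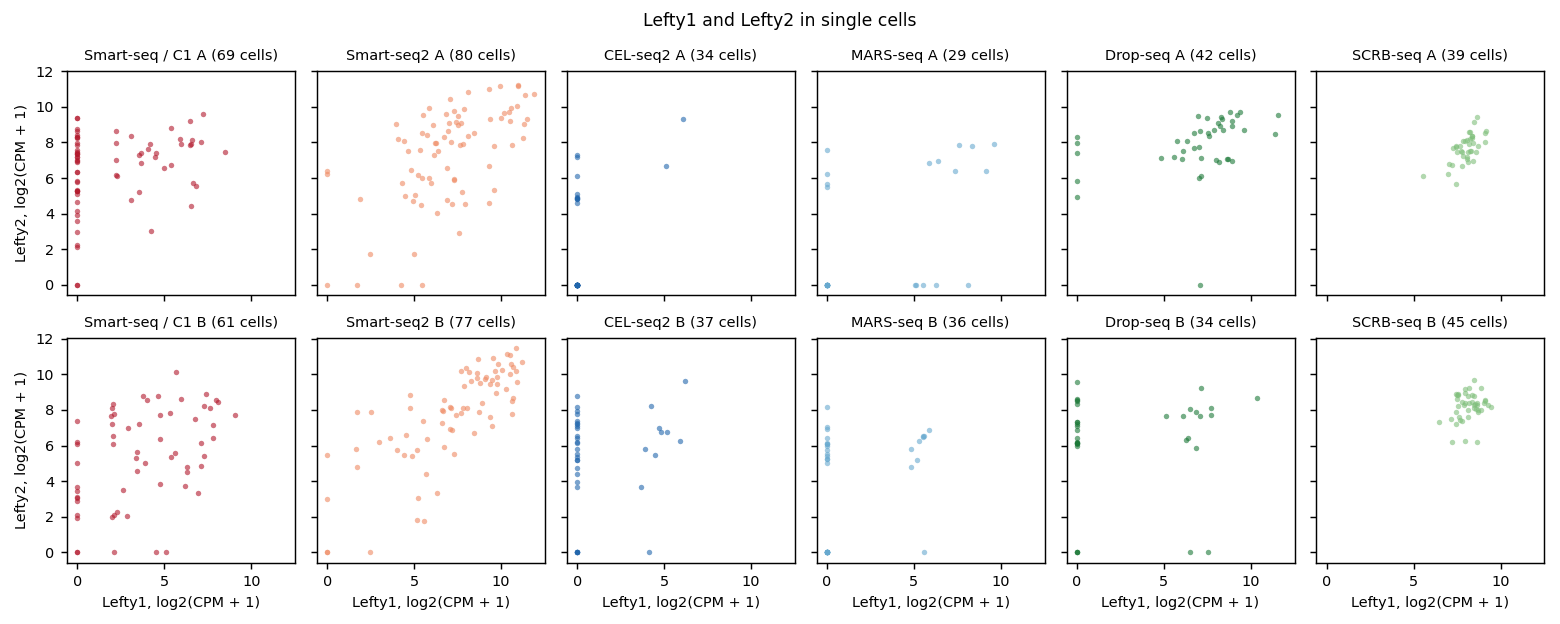
Lefty2 against Lefty1 in single cells of each library, both as log2(CPM + 1), 1 point a cell. Smart-seq2 cells run along the diagonal over a wide range, SCRB-seq cells sit together at high values of both genes, and many cells of Smart-seq / C1, CEL-seq2 and MARS-seq lie at 0 for Lefty1.

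The other pairs had lower medians. Of 21 pairs among the 7 genes, 16 had a median correlation within 0.1 of 0, and in 2 the correlation was above 0 in every library with a value. The second was Lefty1 with Skil, at a median of 0.214 (0.116 to 0.435, 9 of 9 libraries). In thinned cells it was 0.086, above 0 in 6 of 8 libraries, and Lefty2 with Skil stood at -0.026, above 0 in 3 of 8. Without thinning, Lefty2 with Skil was at 0.084, above 0 in 5 of 10. Nodal, whose signal the Lefty proteins block, had a median correlation of 0.048 with Lefty1 (5 of 10 libraries above 0) and 0.07 with Lefty2 (7 of 12). Nodal with Tdgf1, ligand with coreceptor, stood at 0.004, ranging from -0.5 to 0.473. Acvr2b with Skil reached 0.134 (8 of 9 libraries above 0), with its highest value, 0.617, in Drop-seq A. With low counts such as those of Acvr2b, a weak correlation is no finding.

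**Figure D5:**
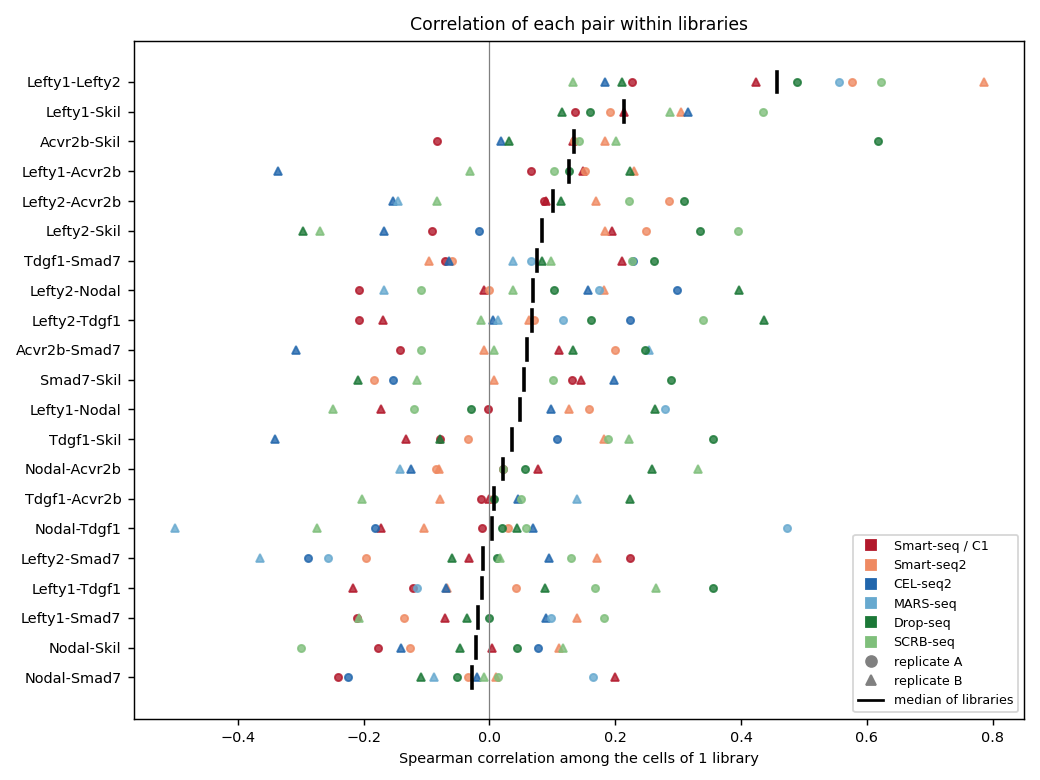
Spearman correlation of each of the 21 pairs among the cells of each library with at least 10 cells counted for both genes; colours are methods, shapes replicates and bars the median over libraries. The Lefty1-Lefty2 pair has a median of 0.457 and every point above 0, and the 19 pairs other than it and Lefty1-Skil have medians between -0.027 and 0.134.

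Among annotated genes within 100 kb of the pair, Tmem63a, which starts 3944 bases after Lefty1 on the same strand, had enough counts in 3 full-length libraries (Smart-seq / C1 A and both of Smart-seq2) and in no tag library. In those 3 its correlation was 0.272 with Lefty1 and 0.285 with Lefty2 in the median and above 0 in 3 of 3. Its levels were low, at 0.359 to 15.2 CPM. H3f3a (median -0.118 with Lefty1 and -0.05 with Lefty2), Sde2 (0.075 and -0.018), Ephx1 (0.067 and 0.008) and Gm17275 (-0.05 and -0.064) stood nearer to 0. Of 8 further annotated genes of the window, 5 were not among the rows used here, H3f3aos had 8 counts in all, and Gm24836 and 2210411M09Rik had 0.

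Likeness to the sum of Lefty1 and Lefty2 across cells was measured as the median within-library Spearman correlation over 12 libraries, for 4570 genes. The median of those genes was 0.001 and their 99th percentile 0.14. Among the 10 highest were Ap3b2, an adaptor protein subunit (0.208), Map1b, a microtubule-associated protein (0.192), the taurine carrier Slc6a6 (0.191), the polyamine enzyme Sat1 (0.19), Trh, thyrotropin-releasing hormone (0.19), the fatty acid desaturase Scd1 (0.187), the translation factor Eif4h (0.184), the mitochondrial ribosomal gene Mrps24 (0.184) and the septin Sept11 (0.179). Sept11 was above 0 in 12 of 12 libraries, which 5 of the 4570 genes were, and Map1b in 11 of 12. Among the 5 lowest were Gabarapl2, an autophagy gene (-0.258), Gm9892 (-0.24), the translation factor Eif2s2 (-0.239) and the actin crosslinker Actn4 (-0.231). Nodal ranked 660, Tdgf1 1213 and Smad7 3025 of the 4570. Among markers of the stem cell state, Sox2 ranked 60 (0.135), Esrrb 1535, Klf4 2587, Nanog 4266 (-0.091), Zfp42 4500 (-0.136) and Pou5f1 4529 (-0.154).

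No gene list or cell property moved closely with the Lefty sum. Median correlations over the libraries with a value were -0.04 with 24 G1/S genes, -0.018 with 24 G2/M genes, -0.074 with 12 amino acid stress genes and 0.036 with the BMP arm. They were -0.086 with the naive and core list, 0.056 with the primed and formative list, 0.025 with mesendoderm, -0.091 with primitive endoderm, 0.042 with neural, 0.094 with trophectoderm, 0.036 with fibroblast and -0.011 with genes of the two-cell-like state. The total count of the cell gave -0.005, the mitochondrial share 0.024, the number of genes with a count 0.044 and the spike-in share 0.14, above 0 in 9 libraries. In Drop-seq, median counts per cell with and without spike-ins were 18886 and 18882.5 in A and 16192.5 and 16187.5 in B. Few spike-in counts thus stand behind the spike-in correlations of that method, 0.27 and -0.028. The part of these properties in the correlation of the pair was not tested, apart from the value given the cell total.

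Promoters of RefSeq (GRCm38.p6), from 250 bases before to 50 after the start, were in hand for Nodal, Tdgf1 and Acvr2b, and not for Lefty1, Lefty2, Smad7 and Skil. They were searched on both strands for the FOXH1 letters TGTGGATT and TGTGTATT, the SMAD letters CAGAC and GTCTAGAC, the octamer ATGCAAAT and the Kruppel-like letters GGGTGTGG and CCACCC, none of which holds another on either strand. Tdgf1 held CAGAC once, 113 bases before the start, Acvr2b held it once on the minus strand and CCACCC once, and Nodal held none of these letters. Of 32851 promoters of this length, 49.6% held CAGAC, 31.5% CCACCC, 1.82% a FOXH1 word, 0.213% GTCTAGAC, 1.74% the octamer and 3.56% GGGTGTGG. These matches describe letters in a window.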

How the data were processed

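The authors deposited 1 count table with 583 cells, 38924 mouse genes and 92 ERCC spike-ins: whole-number counts, taken here from the methods and the totals as UMIs for the 4 tag methods and as reads for the 2 Smart-seq methods. Per the submitters' processing notes, bcl2fastq and STAR 2.4.0 with mm10 were used; the counter of the Smart-seq reads and the annotation are not given in the sources used here. GENCODE M21 (GRCm38) held 37607 of the identifiers. Members, lists and named genes were chosen with earlier results of these data known. Named besides the 7 genes are the 2 passing genes with the smallest p per role of the pathway list, the 10 most and 5 least like the Lefty sum, the genes within 100 kb and 6 stem cell markers; Tdgf1-ps1, which shares sequence with Tdgf1, was added after its values were seen. Some genes and sequences under this rule are not reported here.

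Counts were summed per library (583302 to 34984056) and tested with edgeR 4.0.16 (filterByExpr by method, TMM, robust quasi-likelihood, 1 mean per method, 6 residual degrees of freedom, common biological coefficient of variation 0.418) in 5 orthogonal contrasts and a joint test. Passing means a Benjamini-Hochberg adjusted p below 0.05. Tested on simulated data for full-length against tag methods (13350 genes), the fit recovered 15% of 100 genes changed by 1 and 95% of 100 changed by 2 on the log2 scale, with 7 false calls. No other genes were changed there, whereas 6975 of 14293 genes were called in this contrast of the data. The adjustment for many tests therefore differs, and the recovered shares need not hold for the data. Correlations are Spearman's over cells within a library, for genes with at least 10 cells counted. Cells were thinned without replacement to 10000 counts; the smallest held 10184. All cells stayed in, doublets were not called, and 10 cells exceeded 2 times the median count of their library. Variation is relative to a loess trend (span 0.5). Python 3.11.15, limma 3.58.1 and DESeq2 1.42.0 served the rest. Alternatives were another scaling, DESeq2, limma on library means of log2(CPM + 1), no filter, no high cells, a replicate block, thinning, joined barcodes and leaving out each library. No protein sequences were used here.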

Additional observations from a re-analysis of the deposited data

How the results depend on the processing

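Across 18 alternatives, the results on the 7 genes in the joint test and 5 contrasts stayed as they were, called or not called, in 670 of 756 cases. A call was lost in 46 cases and gained in 40, and no called direction reversed. The 670 include results that were not called in either fit. Changing the scaling to DESeq2 size factors changed none of them. Among gene counts, the Drop-seq against SCRB-seq contrast moved most: 216 genes passed, against 325 with DESeq2 size factors, 954 in the DESeq2 test, 4066 in limma and 469 with no filter, and 11 to 626 with 1 library left out (11 and 18 without SCRB-seq B or A, 21 and 44 without Drop-seq A or B, 626 and 601 without Smart-seq / C1 B or A). CEL-seq2 against MARS-seq called 3341 genes, 6484 in limma, and 1779 to 3932 with 1 library left out (1779 and 1809 without MARS-seq A or B, 1960 without CEL-seq2 B). Smart-seq / C1 against Smart-seq2 called 2223, and 609 to 3305 without 1 library (609 and 620 without Smart-seq2 A or B). In vitro transcription against PCR tag methods called 3144, and 1746 to 3845 without 1 library (1746 and 2084 without Drop-seq A or B, 2005 without MARS-seq B). In limma the higher and lower calls were 6260 and 2681 for full-length against tag methods (3653 and 3322 in edgeR), 258 and 1893 for Smart-seq / C1 against Smart-seq2 (1250 and 973), 5272 and 1212 for CEL-seq2 against MARS-seq (1569 and 1772) and 455 and 3611 for Drop-seq against SCRB-seq. The cause was not tested. A method left with 1 library was assumed to vary like the others.

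Letters A and B as a replicate block left all 42 results on the 7 genes as they were and gave 9004 genes in the joint test, 6815 for full-length against tag methods, 2074, 3169, 183 and 2961 in the other contrasts. Same-letter libraries did not deviate together (15 pairs of methods, correlations of -0.084 to 0.078). The Lefty1-Lefty2 median ran from 0.331 (thinned) to 0.501 (full-length methods), and from 0.424 to 0.489 without 1 library. The Lefty1-Skil median moved to 0.086 in thinned cells. The Lefty2 residual was 0.497, ran from 0.426 to 0.567 without 1 library, and was 1.121 without thinning, 0.41 with Drop-seq barcodes joined and 1.393 over Smart-seq2 and SCRB-seq alone; that of Tdgf1 moved from 0.342 to 1.168 without thinning. Few counts stand behind Lefty1 in CEL-seq2 and MARS-seq and behind Skil in MARS-seq A.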
